A study of Mus musculus with 5 samples.

Results

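The last interval of a differentiation time course, from 1.5 h to 2 h after induction, was examined at the start sites of mouse genes. The comparison set the 2 h library against the 1.5 h library, 2 of the 5 libraries of the series, over all 34714 listed sites. A site or gene was counted as gained where it held 0 entries at 1.5 h and 1 or more at 2 h, and as lost in the reverse case. By this rule 687 sites were gained (1.98% of all sites) and 1120 were lost (3.23%), while 22103 were covered and 10804 uncovered at both times. Of the 8034 genes named for these sites, 74 were gained (0.921% of all genes) and 152 were lost (1.89%). Each time had 1 library, so all values below compare 1 library with 1 other, with no replicate error and no test.

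ATAC-seq, the sequencing assay for accessible chromatin, uses a transposase that inserts adapters where DNA is free of tightly packed nucleosomes, and the start sites of active genes are usually among the most accessible places in a genome. When growth factors are taken away from proliferating neural progenitors, FoxO factors enter the nucleus, cell cycle entry slows, and Notch and Wnt signals help to decide between renewal and neuronal fate. Genes for chromatin enzymes and for signal-responsive factors such as AP-1 are switched within minutes to hours in many cell types. An open promoter is not a measure of transcription.

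The cells were C17.2, an established line of multipotent neural stem cells from mouse, of the strain CD1 x C57BL/6. They were grown in DMEM/F12 with 10% serum, and the induction medium was Knockout DMEM with GlutaMAX and N2 supplement. Nuclei (50000 per library) were taken at 0, 0.5, 1, 1.5 and 2 h, with 1 library per time, and the 0 h library is the labelled control. The submitters' design text names the baseline, 1 h and 2 h only. C17.2 is a single immortal line, so the values describe this line, and in a bulk sample fewer cells with an open site and a less open site in every cell cannot be told apart.

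The sequences just upstream of 4 genes show the kind of site at which the step was read. They were chosen because their values carry the patterns described below: Ado, where a covered stretch lost its middle, Chd4, which was lost, and Gnai1 and Sap30l, where every site held more entries at 2 h. Each is the RefSeq sequence of assembly GRCm38.p6, 5′ to 3′ on the strand of the gene. Capitals mark the site of the gene with the highest mean over the libraries, and other listed sites are in lower case. In Ado the site in capitals stayed covered, with 7 entries at 1.5 h and 3 at 2 h.
Ado, chr10:67548956-67549205, minus strand: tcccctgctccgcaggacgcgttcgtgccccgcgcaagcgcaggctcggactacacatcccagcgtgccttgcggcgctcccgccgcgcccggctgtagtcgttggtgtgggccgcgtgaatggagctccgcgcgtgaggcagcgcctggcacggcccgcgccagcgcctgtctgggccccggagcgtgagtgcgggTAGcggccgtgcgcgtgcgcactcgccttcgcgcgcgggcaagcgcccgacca
Chd4, chr6:125095731-125095980, plus strand: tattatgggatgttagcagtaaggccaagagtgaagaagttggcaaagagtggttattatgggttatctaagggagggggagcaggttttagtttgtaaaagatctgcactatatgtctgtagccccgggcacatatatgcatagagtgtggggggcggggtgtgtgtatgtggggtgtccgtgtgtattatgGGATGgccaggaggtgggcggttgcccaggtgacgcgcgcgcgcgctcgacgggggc
Gnai1, chr5:18360414-18360663, minus strand: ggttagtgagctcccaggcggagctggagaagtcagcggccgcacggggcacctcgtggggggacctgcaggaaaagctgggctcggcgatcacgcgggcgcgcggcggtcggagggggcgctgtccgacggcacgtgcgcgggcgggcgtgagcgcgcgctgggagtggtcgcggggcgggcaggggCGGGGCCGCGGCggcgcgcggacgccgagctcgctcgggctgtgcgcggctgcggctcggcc
Sap30l, chr11:57801387-57801636, plus strand: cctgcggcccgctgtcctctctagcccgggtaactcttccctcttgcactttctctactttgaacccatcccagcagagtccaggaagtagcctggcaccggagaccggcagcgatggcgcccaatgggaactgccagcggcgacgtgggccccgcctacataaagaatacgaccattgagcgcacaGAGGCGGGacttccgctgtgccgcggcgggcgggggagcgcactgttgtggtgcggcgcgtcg
The GC content of these windows was 75.2% for Ado, 54% for Chd4, 79.2% for Gnai1 and 65.2% for Sap30l. The GC-box letters GGGCGG occurred in the windows of Chd4, Gnai1 and Sap30l and not in that of Ado, on either strand. CCAAT occurred in that of Sap30l among these 4. Another RefSeq window of Chd4, chr6:125095913-125096162, holds the same site and is not printed. Its GC content was 67.6%, and both CCAAT and the GC-box letters occurred in it.

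A value is a whole number from 0 to 10 per site and library. It was read as how many BED entries of the library lie over the site, which is an inference from the column names and the values. How many reads stand behind an entry is not known, and neither is the error of one value. A value of 0 means that no entry covered the site, which does not show closed chromatin. The 1.5 h library held 65824 entries over 23223 covered sites (66.9% of all sites) and the 2 h library 59437 over 22790 (65.7%). The 2 h total was thus 0.903 of the 1.5 h total, and a covered site held a mean of 2.83 entries at 1.5 h and 2.61 at 2 h. Whether this difference in total comes from the cells or from the depth of the libraries was not tested.

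The 2 libraries were the most alike of the 10 pairs by most measures. They agreed on covered or uncovered at 94.8% of sites, against 90.9% for the next pair (0.5 h and 1 h), and the sites covered in both made up 92.4% of those covered in either. The mean absolute difference was 0.511 entries, the lowest of all pairs, and 51.5% of sites covered in both held equal values, the highest. By the share of all sites with equal values the order was different: 63.9% for this pair, 66.3% for 0 h and 1 h, and 64.5% for 0.5 h and 1 h. The other steps were larger in number, with 4181 sites gained and 328 lost from 0 h to 0.5 h, 278 gained and 2874 lost from 0.5 h to 1 h, and 5516 gained and 62 lost from 1 h to 1.5 h. The last step is therefore the one with the fewest sites gained or lost. The pair was chosen with its likeness known, so this order describes the choice and is no separate result. These 2 libraries also covered the most sites of the 5 (66.9% and 65.7%).

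Fewer entries were more common than more entries. Of all sites 8138 held fewer at 2 h, 4389 held more and 22187 were equal, and among the sites covered at both times these numbers were 7018, 3702 and 11383. Of 8034 genes, each read at 1 main site, that with the highest mean of all its sites over the libraries, 2047 held fewer entries (25.5%), 1036 more (12.9%) and 4951 the same number. Most differences were of a single entry: 540 genes held at least 2 fewer and 145 at least 2 more. On the log2(entries + 1) scale, which understates differences of low genes, 135 of the 4056 genes with a mean of at least 2.2 entries were at least 2-fold lower at 2 h (3.33%) and 18 at least 2-fold higher (0.444%). The median log2 ratio of all genes was 0. With the 2 h values scaled up to the 1.5 h total, 54 genes were at least 2-fold lower and 18 at least 2-fold higher.

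Loss of coverage varied with the value at 1.5 h. Of the 2769 sites with 1 entry, 386 were lost (13.9%). The share was 4.52% at 2 entries, 2.55% at 3, 3.71% at 4, 3.25% at 5 and 1.04% at 6. At 7 entries it was 10.1%, which is 20 of 199 sites in 5 regions, those of Ado, Rybp, Pfn1, Skil and Cdh2. Of the lost sites 216 had held 4 or more entries, and of the gained sites 63 reached 4 or more. The lost share over all covered sites was 4.82% (Wilson 95% interval 4.55 to 5.11), and 5.98% of the 11491 uncovered sites were gained (5.56 to 6.43). These intervals cover counting error over sites only, and neighbouring sites share entries.

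Most of the sites gained or lost lay in regions that held a covered site at both times. Merging sites within 500 bp gave 9217 regions, of which 176 were lost whole and 88 gained whole, while 555 held at least 1 lost site and 321 at least 1 gained site. Of the lost sites 31.9% were in a region lost whole. Another 50.8% had sites covered at 2 h on 1 side only within their region, and 17.3% had them on both sides. Such covered sites need not be adjacent to the lost site. For gained sites, set against sites covered at 1.5 h, these shares were 30.4%, 49.8% and 19.8%. The median distance from a lost site to the nearest site covered at 2 h was 123 bp, and from a gained site to the nearest site covered at 1.5 h it was 108 bp. In 39 regions a single covered stretch at 1.5 h was split at 2 h, and in 27 regions separate stretches were joined. Within regions with at least 2 covered sites, 96.2% at 1.5 h and 96.5% at 2 h held one value at all of them, so a difference usually applied to a whole stretch.

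Single genes show these shapes. Ado encodes a dioxygenase that oxidises cysteamine and N-terminal cysteines. All 14 of its sites held 7 entries at 1.5 h, and at 2 h the 6 sites from −236 to −24 bp held 3, the 5 sites from −2 to 36 bp held 0, and the 3 sites from 53 to 371 bp held 3. The uncovered stretch at 2 h thus lay on the annotated 5′ end itself, and it begins in the last bases of the sequence printed above. Rybp, a subunit of Polycomb repressive complex 1, held 7 at all 30 sites at 1.5 h, and at 2 h it held 4 at 21 of them and 0 at the 9 sites from 419 to 634 bp. That region became shorter at its downstream end. Satb1, a chromatin organiser, showed the opposite shape: 5 sites from 505 to 588 bp went from 0 to 5 entries while the 6 flanking sites went from 2 to 5, which filled a gap. These genes, like Chd7, Skil, Cdh2, Adgrl3 and Nr3c1 below, lie outside the naming rule, except Ado, Cdh2 and Skil, and were chosen after their values were seen.

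Gains and losses also occurred within one gene. Of the genes, 548 held at least 1 lost site, 321 at least 1 gained site and 43 both. In these 43 the shortest distance from a lost to a gained site ran from 59 to 36747 bp, so not all were neighbours. Chd7, a chromatin remodeller of neural crest and neural progenitors, had 46 sites, of which 12 went from 1 entry to 0 (32 to 571 bp), 1 went from 0 to 2, and 9 at both ends of the region went from 1 to 2. The values of a gene can hide such differences. Skil, a repressor of TGF-beta signalling, went from 7 to 4 at its main site while 2 further sites went from 7 to 0. Cdh2, which encodes N-cadherin, went from 7 to 5 while 2 of its sites went from 7 to 0 and 2 from 7 to 1. In Adgrl3, an adhesion receptor, 2 further sites went from 0 to 7 while its main site went from 5 to 7. In Nr3c1, the glucocorticoid receptor gene, 12 sites held 7 at both times and the site next to them went from 0 to 7. Over the whole table, 93 sites in 43 genes held at least 5 entries fewer and 20 sites in 12 genes at least 5 more.

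**Figure D1:**
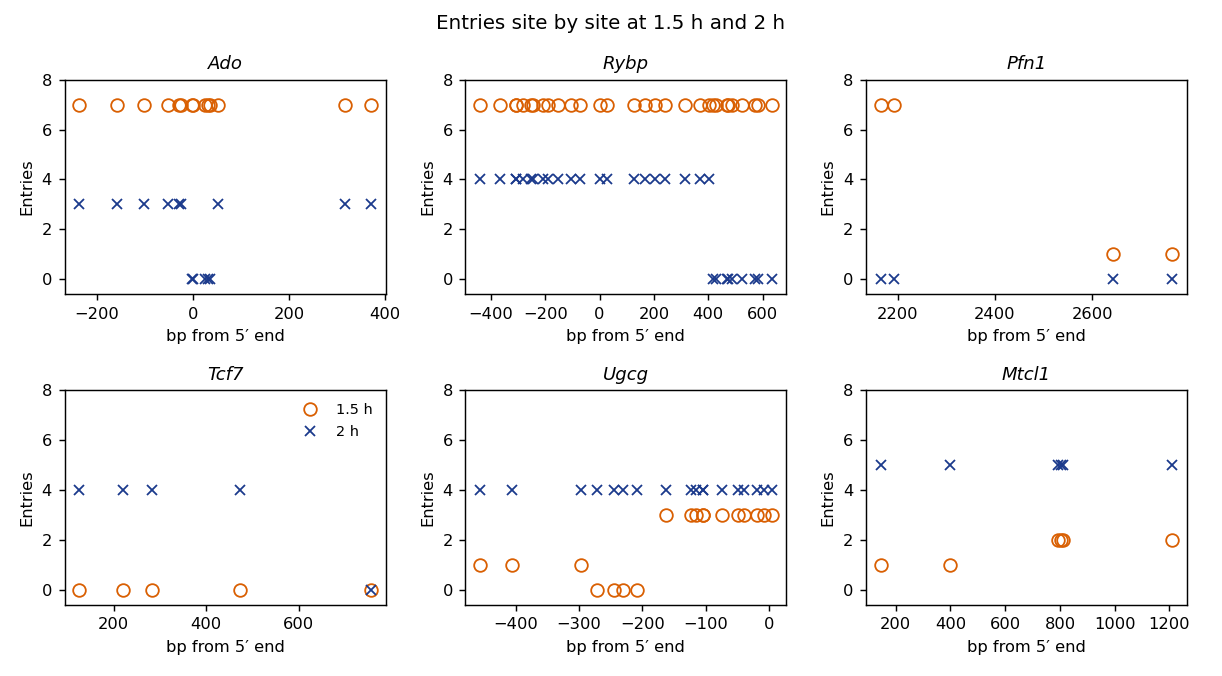
Entries (vertical axis, number per site) at 1.5 h (circles) and 2 h (crosses) for every site of 6 genes, against distance from the annotated 5′ end in bp, positive inside the gene. Ado lost its middle sites and Rybp its downstream sites, all Pfn1 sites went to 0, 4 of 5 Tcf7 sites went from 0 to 4, and all Ugcg and Mtcl1 sites held more entries at 2 h.

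Position in the gene differed between the groups of sites. Distances were known for 31989 sites. The lost sites lay a median of 504 bp inside their gene, the gained sites 353 bp, the sites covered at both times 242.5 bp and those uncovered at both 552 bp. Within 100 bp of the 5′ end lay 12.7% of lost sites, 12.5% of gained sites and 25.5% of sites covered at both times. The share of covered sites that were lost was lowest just upstream of the 5′ end, 2.17% between −100 and 0 bp, and 2.59% between 0 and 100 bp. It was 9.49% between 500 and 750 bp and 9.96% between 750 and 1000 bp, and 5.32% beyond 2500 bp. The gained share of uncovered sites had another profile, with 10.9% between −500 and −100 bp, 6.38% between −100 and 0 bp, 9.25% between 100 and 250 bp and 3.24% beyond 2500 bp.

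**Figure D2:**
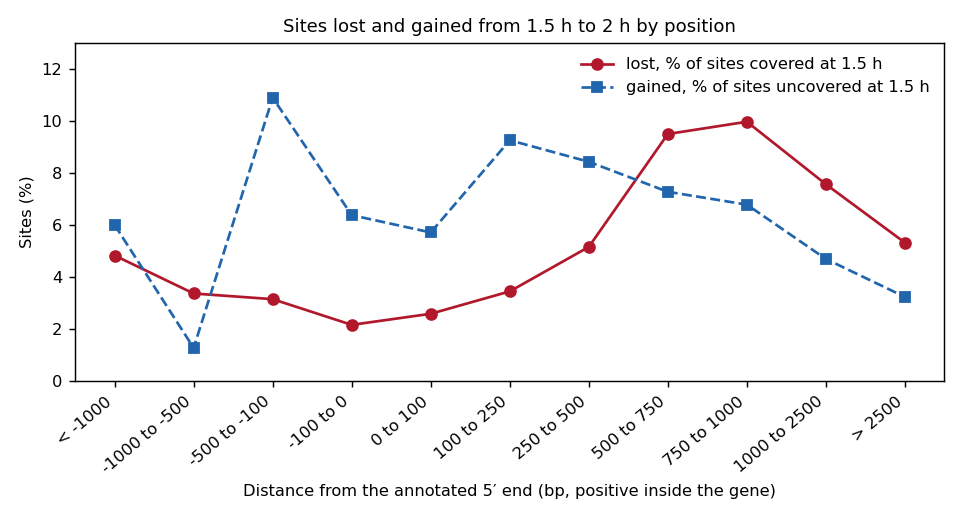
Percent of sites covered at 1.5 h that were lost (solid line, circles) and percent of sites uncovered at 1.5 h that were gained (dashed line, squares), by distance from the annotated 5′ end in bp. The lost share is lowest around the 5′ end (2.17% and 2.59%) and highest between 500 and 1000 bp inside the gene (9.49% and 9.96%).

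By chromosome the lost share ran from 1.67% of covered sites on chromosome 16 and 2.51% on chromosome X to 6.48% on chromosome 15 and 6.74% on chromosome 7. In that order 11, 9, 68 and 79 sites were lost. The gained share was highest on chromosome 10, with 11.5% of uncovered sites (47 sites), and lowest on X, with 3.03% (9 sites). Neighbouring sites share entries, so such a share can rest on few regions. A difference between chromosomes was not tested. None of the 25 sites on chromosome Y was covered at either time.

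Earlier libraries place the step in time. Of the 1120 lost sites, 691 (61.7%) had been covered at 1.5 h only, and 543 of the 687 gained sites (79.0%) were covered at 2 h only. The lost sites had a covered share of 18.5% at 0 h, 31.9% at 0.5 h and 12.3% at 1 h. For gained sites these shares were 8.44%, 16.3% and 4.80%. Sites covered at both 1.5 h and 2 h had been covered in 73.2%, 89.5% and 79.5% of cases. In all of these groups the share was highest at 0.5 h, as it was over all sites, with 47.6% covered at 0 h, then 58.7% and 51.2%. In all 3 earlier libraries, 75 of the lost and 11 of the gained sites had been covered.

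**Figure D3:**
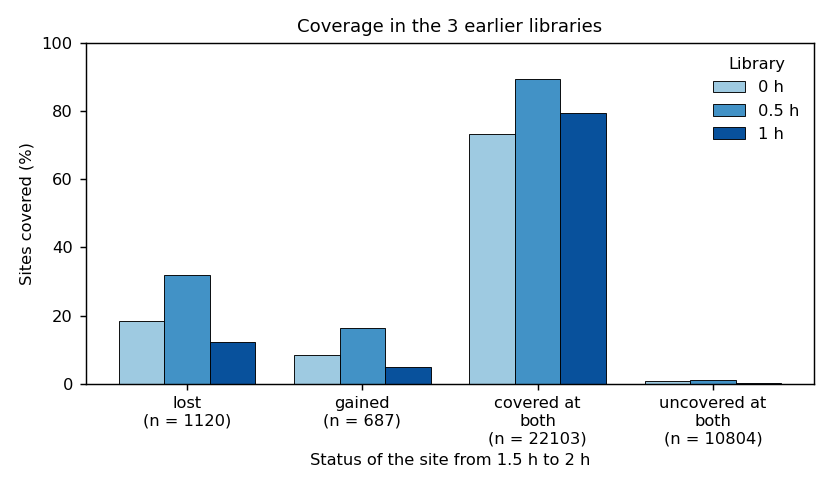
Percent of sites covered (vertical axis) in the 0, 0.5 and 1 h libraries, for sites lost, gained, covered at both or uncovered at both from 1.5 h to 2 h. Lost sites stood at 12.3 to 31.9% and gained sites at 4.80 to 16.3%, against 73.2 to 89.5% for sites covered at both times.

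Read at their main sites, genes followed the same order with higher shares. For the 152 lost genes the covered share was 38.2% at 0 h, then 46.1% at 0.5 h and 19.7% at 1 h, and for the 74 gained genes 23.0%, 24.3% and 8.11%. The lost genes included 67 covered at 1.5 h only, 29 covered at 0 h and 0.5 h but not at 1 h, 20 covered at all 3 earlier times and 19 covered before at 0.5 h only. The gained genes included 45 covered at 2 h only, 11 covered before at 0 h only and 9 covered before at 0.5 h only. Of the lost genes 66 had held 1 entry at 1.5 h and 18 had held 4 or more. Of these 18, 14 had been covered at 0.5 h and 12 were at 0 at 1 h. Over the whole table the libraries also alternated, with 42527 entries at 0 h, 56773 at 0.5 h and 45254 at 1 h, and 382 genes lost from 0.5 h to 1 h against 47 gained. The part of these totals in the course of single genes was not tested. No site of the gene was covered at 2 h in 138 of the lost genes, and no site at 1.5 h in 69 of the gained genes.

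Among genes with more entries at 2 h, 3 gained genes reached 4 entries. Tcf7 encodes TCF1, a nuclear partner of beta-catenin in Wnt signalling. Its site at chr11:52282909-52282913, 472 bp inside the gene, held 0, 1, 0, 0 and 4 entries at 0, 0.5, 1, 1.5 and 2 h, and 4 of its 5 sites, from 126 to 472 bp, went from 0 to 4 in the last step. The fifth stayed at 0. Mdga1, a surface protein that binds neuroligins at synapses, held 0, 4, 0, 0 and 4 at chr17:29888260-29888264, while its other site went from 1 to 0. AI837181, whose role is not described here, held 2, 0, 0, 0 and 4 at chr19:5425162-5425166, and both of its sites were gained.

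Genes already covered at 1.5 h made up most of the other increases. Genes tied in difference were ordered by the share of their sites that moved alike, and neighbouring sites mostly held one value. Agreement between the sites of a gene named here and below was thus partly fixed by the choice. Mtcl1, a microtubule crosslinking protein, held 2, 2, 2, 1 and 5 entries at chr17:66449660-66449663, and all 6 of its sites held more at 2 h, 2 of them going from 1 to 5 and 4 from 2 to 5. Six5, a homeobox factor, held 0, 3, 1, 2 and 6 at chr7:19095004-19095005. Jmy, an actin nucleator that also acts as a p53 cofactor, held 4 in each of the first 4 libraries and 7 at 2 h, and all 16 of its sites held more at 2 h. At its main site Jmy was thus level until the last library.

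Sap30l, a component of Sin3 histone deacetylase complexes, held 2 in each earlier library and 5 at 2 h, and Reep3, which shapes the endoplasmic reticulum, held 1 in each earlier library and 4 at 2 h. Pds5b, a regulator of cohesin, held 3, 5, 2, 1 and 4, with all 10 of its sites higher. Gnai1, an inhibitory G protein subunit, held 0, 5, 2, 2 and 5, with all 9 of its sites higher. For Pds5b and Gnai1 the 2 h value came near or up to that at 0.5 h. Ugcg, the enzyme that makes glucosylceramide, held 0, 1, 1, 1 and 4 at chr4:59189048-59189054. All 18 Ugcg sites held 4 at 2 h: 11 had held 3 at 1.5 h, 3 had held 1 and the 4 between them had held 0.

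**Figure D4:**
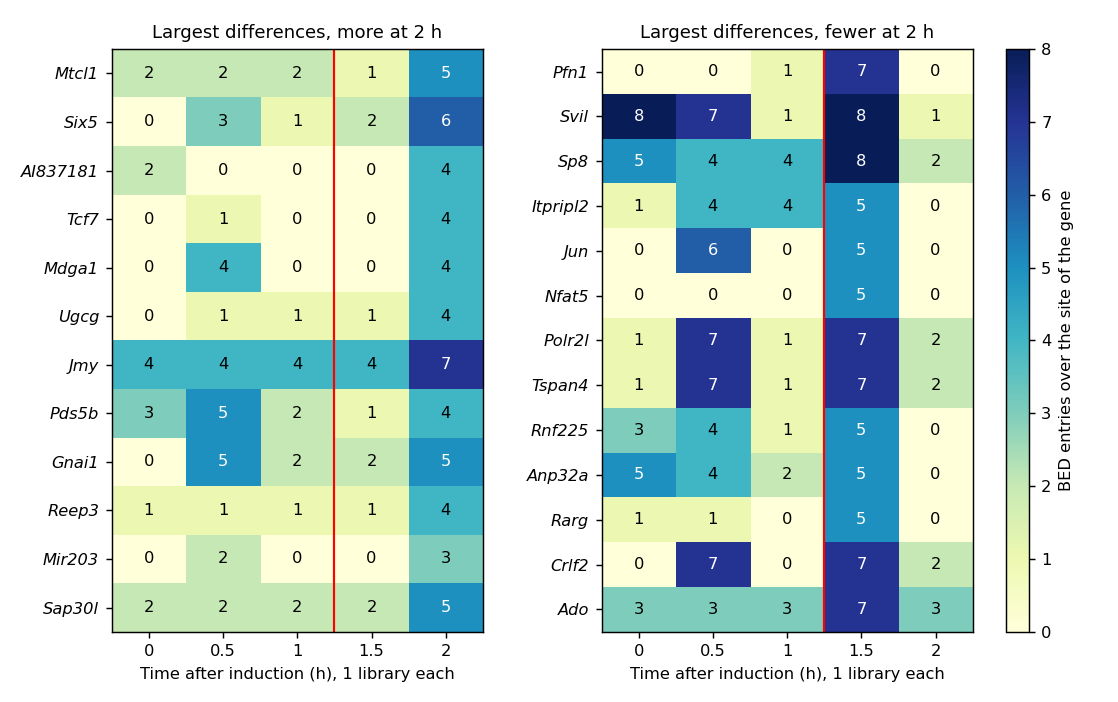
Entries (colour and number) at the main site of each gene in the 5 libraries, for the genes with the largest differences in entries from 1.5 h to 2 h. The left panel holds those with more entries at 2 h and the right panel those with fewer, and the red line stands between 1 h and 1.5 h. Jun, Polr2l, Tspan4 and Crlf2 hold 5 to 7 entries at 0.5 h and 1.5 h and 0 to 2 at 1 h and 2 h.

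A microRNA gene was among the gains. MicroRNAs are short RNAs that pair through their seed with messenger RNAs, and miR-203 is known from skin, where it limits the stemness of keratinocytes. Mir203 held 0, 2, 0, 0 and 3 entries at chr12:112130515-112130517, and all 5 of its sites, from −364 to −99 bp, went from 0 to 3 in the last step. The mature sequences, from RefSeq with the seed (bases 2 to 8) in capitals, name the product of this gene:
mmu-miR-203-5p: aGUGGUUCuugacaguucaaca
mmu-miR-203-3p: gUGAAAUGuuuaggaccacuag
The 5p and 3p arms have different seeds. Of the 10 microRNA genes matched by name, 4 held more entries at 2 h and 1 held fewer, and Mir203 was the 1 gained. Over all genes 12.9% held more entries, 25.5% fewer and 0.921% were gained. A set of 10 genes is too small to be set against these shares. The other microRNA genes that differed were Mir193a (1 entry at 1.5 h and 2 at 2 h), Mir8105 (2 and 3) and Mir8109 (3 and 4), with more, and Mir148a (2 and 1), with fewer. Coverage of a site does not measure the microRNA.

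At the main sites of genes the differences ran from −7 to 4 entries, and over all sites from −7 to 7. Pfn1 encodes profilin, which feeds actin monomers to growing filaments. Its main site at chr11:70654605-70654607, 2193 bp inside the gene, held 0, 0, 1, 7 and 0 entries, and all 4 of its sites were lost, 2 from 7 and 2 from 1. Svil, an actin and myosin binding protein, held 8, 7, 1, 8 and 1 at both of its sites. Sp8, a zinc finger factor of forebrain patterning, held 5, 4, 4, 8 and 2. Pfn1 was high at 1.5 h alone, whereas Svil was high in the first 2 libraries and at 1.5 h.

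Jun, a subunit of AP-1, held 0, 6, 0, 5 and 0 at its single site, chr4:95051546-95051551. The same up and down course was seen in Crlf2, a subunit of the receptor for thymic stromal lymphopoietin, with 0, 7, 0, 7 and 2. Polr2l, a small subunit shared by RNA polymerases, and its neighbour Tspan4, a tetraspanin, held 1, 7, 1, 7 and 2 each at sites in one region of chromosome 7. These 4 genes held their high values at 0.5 h and 1.5 h and not at 1 h or 2 h. Nfat5, the factor that responds to osmotic stress, held 5 entries at 1.5 h and 0 in every other library.

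Rarg, a retinoic acid receptor gene, held 1, 1, 0, 5 and 0 at a site 9736 bp inside it. Anp32a, a nuclear acidic protein that binds histones, held 5, 4, 2, 5 and 0 at a site 2242 bp inside, where 4 of its sites were lost, while the 2 sites between −388 and 78 bp held 2 at both times. The promoter end of Anp32a was thus level. Itpripl2 held 1, 4, 4, 5 and 0 and Rnf225 3, 4, 1, 5 and 0, each at a single site. Ado held 3, 3, 3, 7 and 3 at its main site, so that its 2 h value was that of the first 3 libraries.

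At their main site, some genes were covered in a single library. At 1.5 h only, besides Nfat5, these were led by Tlk2, a kinase that acts on histone chaperones, with 4 entries, and by Astn2, Cabp1, Cebpa and Clstn1 with 3 each. Cebpa encodes the CCAAT enhancer binding protein alpha, Astn2 is a neuronal membrane protein of glia-guided migration, Cabp1 binds calcium, and Clstn1 is calsyntenin, a synaptic and axonal transport protein. In Clstn1 7 of 9 sites were covered at 1.5 h and none at 2 h, and 1 of the 7, not the main site, also held 1 entry at 0.5 h. In Astn2 2 other sites were gained as the main site was lost. At 2 h only, the leading genes were Csnk1e, a clock and Wnt pathway kinase, and Usf2, an E-box binding factor, with 3 entries each. Amigo2, an adhesion protein, Bmp2, a ligand of the BMP pathway, and Castor1, the arginine sensor of mTORC1, held 2 each. In Amigo2 all 6 sites were gained and in Bmp2 5 of 7.

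Gene lists for pathways of this system were then counted. Only members with a named site were counted, for example 42 of the 56 symbols listed for histone lysine methylation. For the respiratory chain and ATP synthase these were 22 of 76. The lists had been drawn up with earlier results of these data known, and 1 library stands behind each time, so a count describes these libraries and is set beside all genes, of which 25.5% held fewer entries at 2 h and 12.9% more. In 24 of the 27 lists with at least 5 genes more members held fewer entries than more, and in 2 the reverse, but with the 2 h values multiplied by 1.11 to equal totals and not rounded, every equal pair above 0 counts as higher and 24 lists had more members higher. With those values rounded to whole entries, 20 lists had more members lower and 3 more members higher. Among the 6372 genes covered at 1.5 h, 32.1% held fewer entries, 15.1% more and 2.39% were lost (Wilson 95% interval 2.04 to 2.79). This choice keeps the 152 lost genes and leaves out the 74 gained ones, so part of the excess of fewer over more is fixed by it.

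Enzymes of histone lysine methylation held 5 of the lost genes among 40 covered at 1.5 h, or 12.5%. Of the 42 measured, 15 held fewer entries, 6 more and 21 the same. The H3K4 methyltransferase genes Kmt2a (0, 0, 3, 3 and 0 entries over the 5 libraries), Kmt2b (0, 0, 0, 2 and 0) and Kmt2d (0, 3, 0, 4 and 0) were lost. So were the demethylase genes Kdm5a (4, 4, 0, 4 and 0), which acts on H3K4, and Kdm6b (4, 0, 0, 4 and 0), which acts on H3K27. In Kmt2d 9 of 11 sites were covered at 1.5 h and none at 2 h, while Kdm5a had a single site and the Kdm6b site lay 10329 bp inside the gene. Kdm5b went from 4 to 1 entry and Kmt5b from 5 to 2, against Setd1a, a further H3K4 methyltransferase gene, which went from 2 to 4.

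Of 22 genes for histone acetylation and deacetylation, 8 held fewer entries and 5 more, and 2 were lost, among them Jade2, a subunit of the HBO1 acetyltransferase complex (4, 4, 0, 4 and 0). Of 43 remodeller genes, 11 held fewer and 10 more, with 2 lost and 1 gained. Chd4, the NuRD ATPase, was lost at its single site (5, 5, 2, 4 and 0), the site printed in capitals above. Bptf, the NURF subunit, went from 1 entry to 0 at its main site, while 3 of its 6 sites were covered at 1.5 h and 4 at 2 h. Mta1, a further NuRD subunit, went from 0 to 1, with 3 of its 17 sites covered at 2 h and none at 1.5 h. Baz2a, a subunit of the nucleolar remodelling complex, went from 6 to 2 and Smarca2, the BRM ATPase, from 5 to 2. Rsf1, partner of the ISWI ATPase, held 0, 6, 3, 3 and 6, and Smarcd3, a BAF subunit of neural and heart cells, went from 1 to 3.

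Signalling lists were mixed. Of 33 immediate early genes, which respond first to growth factors, 8 held fewer entries, 4 more and 21 the same, and Jun was the one lost. Fos held 4, 3, 4, 4 and 2, whereas Gadd45b (5, 3, 3, 1 and 3) and Zfp36l1 (4, 4, 3, 1 and 3) held more at 2 h. Among 21 FoxO and growth factor withdrawal targets 11 held fewer and 1 more, and the median difference was −1 entry against 0 for all genes. The 20 members covered at 1.5 h held 74 entries there, and the 6372 covered genes held 17498. Of sites with 1 entry at 1.5 h 13.9% held fewer at 2 h, against 37.4% with 3 and 65.7% with 5. The part of the starting value in the count of this list was not tested. In the FoxO list Ccng2 went from 5 to 3, Cited2 from 7 to 5 and Irs2 from 4 to 2, and Rictor, a subunit of mTORC2, from 5 to 7. Of 24 insulin and growth factor kinase genes 10 held fewer and 3 more. Akt1 was lost at its main site (5, 5, 0, 4 and 0), 1 of 14 sites and the one covered at 1.5 h, and Pik3ca went from 1 to 3.

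Of 25 Wnt pathway genes 5 held fewer entries and 3 more, with 3 lost and 1 gained. The receptor gene Fzd2 held 2, 2, 1, 3 and 0, and Fzd7, also a receptor gene, and Axin1, a scaffold of the beta-catenin destruction complex, went from 1 to 0. Lef1 and Tcf7, which encode related nuclear effectors, differed in sign: Lef1 went from 7 to 5 and Tcf7 from 0 to 4. Of 23 Notch pathway genes 4 held fewer and 1 more. Mib1, the ligase needed for Notch ligand endocytosis, was lost at its main site (2, 1, 0, 3 and 0), with 9 of 9 sites covered at 1.5 h and 1 at 2 h, and Notch1 held 0, 1, 0, 1 and 3. Of 27 TGF-beta and BMP genes 6 held fewer and 4 more, among them Smad5, which went from 6 to 4, and the receptor gene Bmpr2, which went from 4 to 6.

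Of 26 proneural and neuronal transcription factor genes, 12 were covered at both times. In this list 5 held fewer entries and 1 more. Sox4 held 2, 2, 0, 6 and 3 and Sox11 3, 7, 4, 6 and 4, both factors of newborn neurons, and further sites, 1 of Sox4 and 2 of Sox11, went from 6 to 0. Of 24 genes for neuronal cytoskeleton and synapse 4 held fewer and 2 more, including Elavl4, a neuronal RNA binding protein (3 to 1), and Stmn1, a microtubule destabiliser (5 to 3). Of 16 Hox genes 13 were at 0 in all libraries. Hoxc13 was gained, with 0 entries until 1.5 h and 1 at 2 h. Hoxc5 was gained at its main site (3, 1, 2, 0 and 2), which lies at −32143 bp, but 4 of its 7 sites were covered at 1.5 h and 5 at 2 h. Hoxb9 went from 5 to 2.

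Markers were checked against the labelled cell type. Only markers with a named site were counted: 19 of 27 for neural progenitors, 5 of 12 for neurons and 3 of 11 for astrocytes. For the oligodendrocyte lineage these were 6 of 12, for mesenchymal cells 2 of 12 and for microglia and blood 1 of 11. For endothelial and epithelial cells they were 3 of 10. Of 19 neural progenitor markers 13 held an entry at 1.5 h and 12 did at 2 h, and 4 were lower and 2 higher. Nes, the progenitor filament nestin, was lost (0, 0, 0, 2 and 0), while Sox9 held 4 and Hes1 1 at both times, and Msi1, Nr2e1, Pax6, Sox3, Zic1 and Zic2 were at 0 in all libraries. Of 5 neuron markers 3 were covered at both times, with Rbfox3 and Elavl3 at 0. Of 3 astrocyte markers, Slc1a2 went from 1 to 0, Nfib from 4 to 5 and Nfia stayed at 0. Of 6 oligodendrocyte lineage markers 3 were covered at 1.5 h and 2 at 2 h, Nkx2-2 being lost. The mesenchymal markers Runx2 (0, 4, 0, 4 and 7) and Twist1 (2, 3, 3, 6 and 4) were both covered. The microglia and blood marker Cx3cr1 held 2 and the endothelial marker Flt1 held 3 at both times, and Cldn5 and Epcam were at 0. Covered start sites thus include genes of other cell types, and they do not by themselves name a cell type.

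Cell cycle and growth lists came next. Of 23 genes for G1/S and DNA replication 10 held fewer entries and 2 more. E2f3 was lost (0, 3, 0, 2 and 0), E2f4 went from 6 to 2, Cdk6 from 8 to 6 and Dbf4 from 3 to 1. Of 20 genes for G2/M and mitosis 5 held fewer and 3 more, none by over 1 entry. Of 37 cytosolic ribosomal protein genes 16 held fewer and 6 more, for example Rpl10a (5 to 3), Rpl15 (3 to 1) and Rps16 (4 to 2). Of 11 sterol synthesis genes 6 held fewer and none more, each by 1 entry.

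Of 29 heat shock chaperone genes 10 held fewer entries and 5 more. Dnajb4 and Stip1, which are co-chaperones, and Bag2 went from 4 to 2, and Cct2, a subunit of the TRiC chaperonin, from 2 to 4. Of 21 genes of the integrated stress and DNA damage response 7 held fewer and 6 more, including Gadd45g (3 to 1), Bbc3, the p53 target PUMA (1 to 3), and Keap1, the NRF2 inhibitor (4 to 6). Fewer and more were thus nearly equal in number in the stress response list.

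Metabolic lists differed in count. Of 13 genes for the tricarboxylic acid cycle with pyruvate dehydrogenase 6 held fewer entries and none more, with Dlst, a subunit of oxoglutarate dehydrogenase (3 to 1), and Sucla2, of succinyl-CoA synthetase (4 to 2), the largest. Of 14 glycolysis genes 2 held fewer and 1 more, and Pkm, the pyruvate kinase gene, was lost (1, 2, 0, 3 and 0). Of 22 genes of the respiratory chain and ATP synthase 4 held fewer and 5 more, with Atp5a1 (4 to 2), Uqcr11 (3 to 1) and Ndufb11 (2 to 4) the largest. Of 22 mitochondrial ribosomal protein genes 4 held fewer and 4 more, the largest being Mrpl43 (4 to 2). Of 17 mitochondrial protein import genes 6 held fewer and 4 more. Hspd1 and Hspe1, the chaperonin genes that share a promoter, both went from 6 to 3, and Timm50 from 3 to 1. Of 11 genes for mitochondrial RNA import, decay and processing 3 held fewer and 2 more, the largest being Tfb2m, a mitochondrial transcription factor (3 to 1).

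**Figure D5:**
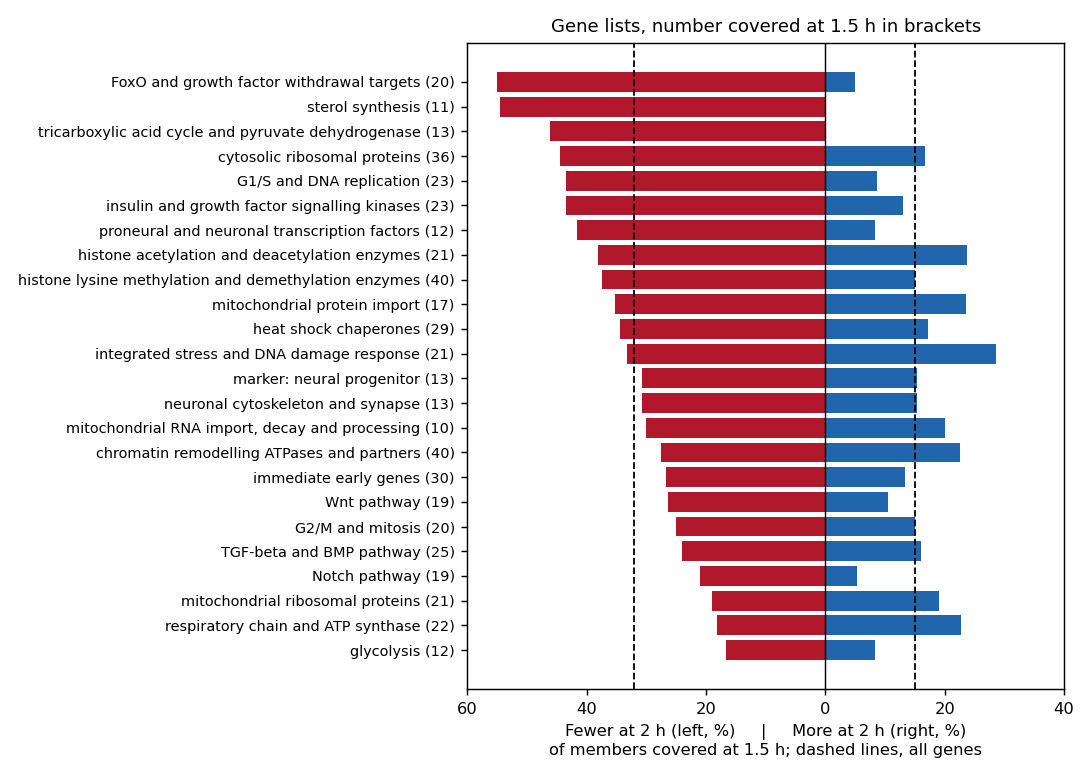
Percent of the members covered at 1.5 h that held fewer entries at 2 h (bars to the left) or more (bars to the right), for each gene list with at least 10 covered members. The dashed lines are all covered genes, 32.1% fewer and 15.1% more, and the shares with fewer run from 16.7% for glycolysis to 55% for FoxO targets. Choosing members covered at 1.5 h keeps lost genes and leaves out gained ones. Over all sites the share with fewer was larger at higher 1.5 h values, 13.9% at 1 entry and 65.7% at 5.

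The sequence of the promoters differed little in composition between the groups. RefSeq promoter windows of GRCm38.p6, from 250 bases before to 50 bases after a start, were matched by symbol to 5917 of 8034 genes, and 3609 windows held a site of their gene. A window counted as lost where some site in it was covered at 1.5 h and none at 2 h, which gave 61 lost, 46 gained, 2958 covered at both times and 544 uncovered at both. The median GC content was 70.3%, 74.3%, 69% and 71.8% in that order, against 52.7% over all 32851 RefSeq windows. Motifs were searched on both strands and could overlap one another. The GC-box GGGCGG was in 83.6% of lost, 87.0% of gained and 86.2% of windows covered at both times, against 35.7% of all RefSeq windows.

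The ETS letters CCGGAAG were in 6 of the 61 lost windows (9.84%), 3 of the 46 gained (6.52%), 17.2% of those covered at both times and 5.70% of those uncovered at both, against 8.86% of all. CCAAT was in 16.4%, 8.70%, 32.3% and 20.8%, against 37.4% of all. Among windows with a site, both motifs were thus most frequent in those covered at both times. The AP-1 letters TGANTCA were in 3.28% of lost and 2.17% of gained windows, against 2.77% of those covered at both times. For the CRE letters TGACGTCA these shares were 3.28%, 0% and 3.25%, for the NRF1 motif 3.28%, 2.17% and 3.21%, for the E-box CANNTG 55.7%, 54.3% and 51.7%, and for TATAAA 3.28%, 4.35% and 5.88%. Few windows stand behind the lost and gained shares. A match describes letters and is not a binding site.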

How the data were processed

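Per the submitters' processing notes, the authors used Bowtie2, MACS2 and deepTools with GRCm38 (mm10); the sources used here give no versions, settings or peak thresholds. The deposited table gives each site and library a score, a whole number from 0 to 10, named per the file headers after a BED file and used as it stands. It holds 34714 sites 1 to 23 bp wide, 33952 with a gene name, and 0 further per-sample columns. Coordinates are those of the table. No exon, intron or UTR was annotated. Distances use the RefSeq gene table of GRCm38.p6, which matched 7551 of 8034 genes.

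A gene took the value of 1 main site, the one of its sites whose mean over the 5 libraries was highest, and a site or gene was covered at 1 or more entries. The 2-fold counts used log2(entries + 1) among 4056 genes with a mean of at least 2.2, the median gene. Wilson 95% intervals cover counting error only. The symbol Galnt2l, attached to sites far beyond one gene, was counted but not named. Named were the 12 genes with the most added and the 12 with the most missing entries (ties by share of sites moving alike, number of sites, then name), neighbours with equal values together, without symbols of the Gm or Rik kind; up to 4 per list; and up to 6 covered at 1.5 h only and 6 at 2 h only. Some genes this rule names are not reported here. The lists were those of immediate early, FoxO, kinase, Notch, Wnt, TGF-beta and BMP, proneural, histone methylation, histone acetylation, remodeller, metabolic, mitochondrial, ribosomal, cell cycle, stress, chaperone, sterol, neuronal cytoskeleton and Hox genes and cell type markers. The step, members and lists were chosen with earlier results of these data known. With 1 library per time no test was run. The counting was checked on simulated tables with planted differences. Python 3.11.15, pandas 2.3.3, numpy 2.4.6, scipy 1.17.1 and matplotlib 3.10.9 were used. Alternatives covered the entry minimum, merged sites, the site that stands for a gene, the pseudocount, the filter, and scaling to equal totals.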

Additional observations from a re-analysis of the deposited data

How the results depend on the processing

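Of 36 alternative counts, 20 lay within 1.5 times the reported ones, and in the sites, genes and 2-fold counts losses outnumbered gains under every alternative run. With 2 or more entries as the minimum, 1284 sites were gained and 2532 lost, and 258 genes were gained and 601 lost. Merging sites within 500 bp gave 88 gained and 176 lost regions. Without the filter 116 genes were at least 2-fold higher and 347 lower, and with the filter on the mean of both libraries, which kept 5239 genes, 45 and 213. Scaling the 2 h values by 1.11 to equal totals gave 54 genes at least 2-fold lower. A difference of at least 2 entries left 145 genes with more and 540 with fewer. Scaled without rounding, 4399 genes had more and 2047 fewer, since the 3363 genes with equal values above 0 then count as more, and of the 27 lists 24 had more members higher and 3 more members lower. Scaled and rounded, an alternative chosen after seeing the data like the scaling of the lists, 1165 genes had more and 2011 fewer. The scaling moved the median log2 ratio of all genes from 0 to 0.08. Of the 36 named entries, 29 kept their difference when a gene took its highest value over all sites and 7 differed in size: Mtcl1 3, Mdga1 3, Ugcg 1, Reep3 2, Sp8 −5, Anp32a −3 and Astn2 −1 entries. No paired analysis was possible because each time had 1 library, which also means that no library could be left out. The depth is unknown, so a single entry more or fewer cannot be told from noise between libraries.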

Other observations

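A few of the largest site differences fell outside the gene values described above and are given as values. Sites named for Epo, the erythropoietin gene, went from 0 to 5 entries at 3 sites, but these sites lay at −24541 to −24360 bp from the gene. Rest, the repressor of neuronal genes, held 6 at its main site at both times while 1 site at −166 bp went from 6 to 0. Rims2, which encodes a presynaptic active zone protein, had 1 site at −340 bp that went from 0 to 5, and Tshz3, a zinc finger factor of neural development, 1 site at 340 bp that did the same. Nipbl, the cohesin loader, had 1 site at 21634 bp that went from 5 to 0 while its main site went from 5 to 4. These genes were chosen after their values were seen.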
